A study of Rattus norvegicus with 17 samples.

Results

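The small proline-rich protein (Sprr) genes were followed in the meibomian gland (MG) of rats with and without eyelid exposure to UVB. Every row of the deposited expression table whose symbol begins with Sprr was taken, which gave 4 genes, Sprr1a, Sprr1b, Sprr2d and Sprr3, of 17251 genes in all. All 4 were among the 13105 genes with at least 1 TPM (a transcript abundance that is scaled by transcript length and by library) in at least 3 rats, the genes that were tested. RNA from the MG of 17 female rats aged 10 to 12 weeks was sequenced, with 4 Control WT, 3 UVB WT, 5 Control P1.hMR and 5 UVB P1.hMR rats. WT rats carried no transgene. P1.hMR rats carried the gene of the human mineralocorticoid receptor (MR) under its proximal P1 promoter, on the Sprague-Dawley background, and this promoter is active in all tissues that express MR rather than in 1 cell type of the gland. In the UVB groups the eyelids were irradiated on 5 days and the glands were dissected at the end, while the Control groups of both genotypes were left without irradiation. The study pooled both eyes of a rat into 1 sample where both were used, and the deposited table has 1 column per rat.

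Sprr proteins are small, proline-rich and glutamine-rich precursors of the cornified envelope, the cross-linked protein shell that replaces the plasma membrane of terminally differentiated keratinocytes. Transglutaminases join them to loricrin, involucrin and other precursors, and the proportion of Sprr protein is held to set how stiff and how flexible the shell is. Their genes lie together in the epidermal differentiation complex. In resting skin several of them are low outside of appendages and lining epithelia, and they are known as genes that rise in wounded, irradiated or inflamed epithelium. The duct of the MG is lined by a keratinizing squamous epithelium, whereas the meibocytes of the acini make lipid.

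Human NR3C2, the transgene's transcript, was listed at 0 in all WT rats and lay between 5.31 and 9.31 TPM in the P1.hMR rats, and the authors' quantification could have divided reads between it and rat Nr3c2. Deposited TPM summed to between 804378 and 840817 per rat, and between 12372 and 12737 genes per rat reached 1 TPM. TPM keeps no read depth, so the counting error behind each value is unknown and precision rests on the spread between rats. All 13 meibocyte markers looked for were measured, with summed levels of 39927 to 55249 TPM per rat, so the tissue carried the markers of its label. Markers listed for neighbouring tissues were present as well, with summed levels of 11118 to 16425 TPM for the 8 of epidermis. The 4 of conjunctiva summed to 3973 to 6931 TPM, and the 7 of skeletal muscle to 1771 to 4144 TPM. The epidermis list includes Krt5 and Krt14, at means of 3564 and 5279 TPM in Control WT rats. The study stained KRT14 and KRT10 in the gland itself, so this sum is not a measure of neighbouring epidermis alone. In such bulk samples, fewer or more cells of a type and less or more RNA per cell cannot be told apart.

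The 250 bases before the annotated starts of Sprr1a and Sprr1b are shown because these genes had the highest level and the steepest rise, respectively. They are given 5′ to 3′ in the direction of transcription, from RefSeq on build GRCr8, whereas the reads were aligned to rn7. Sprr1a is at chr2:180752626-180752875 and Sprr1b at chr2:180706356-180706605, both on the minus strand. Capitals mark the letters TGANTCA, the core bound by AP-1 (dimers of Fos and Jun proteins) with any middle base, and the TATA box TATAAAA.
Sprr1a: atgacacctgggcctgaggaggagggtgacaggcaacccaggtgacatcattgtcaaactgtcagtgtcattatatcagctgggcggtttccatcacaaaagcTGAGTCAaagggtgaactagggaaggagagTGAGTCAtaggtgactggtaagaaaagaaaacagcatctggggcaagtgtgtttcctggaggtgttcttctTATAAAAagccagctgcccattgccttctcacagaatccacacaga
Sprr1b: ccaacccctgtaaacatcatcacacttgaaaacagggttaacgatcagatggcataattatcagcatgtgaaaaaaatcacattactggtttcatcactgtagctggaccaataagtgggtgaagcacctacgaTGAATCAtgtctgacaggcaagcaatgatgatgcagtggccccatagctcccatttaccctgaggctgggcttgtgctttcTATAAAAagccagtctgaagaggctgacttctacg

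Both windows held a TATA box close to the start and an AP-1 core further out. Sprr1a had the exact core TGAGTCA in 2 places, beginning 147 and 117 bases before the start, and Sprr1b had 1 core with another middle base, beginning 116 bases before it. Both strands were searched, and TGAGTCA is contained in TGANTCA. Among the 33469 RefSeq windows of the same length, 4.05% held TGAGTCA or its reverse complement, 6.34% held TGANTCA and 5.38% held TATAAAA. The full palindromic steroid receptor element, which MR and the glucocorticoid receptor can bind, had no match in either window, and it was present in 0.012% of all windows. Its arm AGAACA matched once in Sprr1a, on the opposite strand 55 bases before the start, and 17.5% of all windows held it. The cAMP response element TGACGTCA (1.59% of windows), GGAAGT for ETS factors (19.2%), CCACCC for KLF factors (26.1%), TTGCNNAA for C/EBP factors (9.22%) and the octamer ATGCAAAT (1.56%) had no match in the windows of Sprr1a and Sprr1b. Sprr2d has a RefSeq window too, and of these motifs it held TTGCNNAA alone. Its 300-base window, the 50 bases after the start included, aligned to that of Sprr2b with 93.0% identical bases. Sprr3 had no entry. These matches describe letters, not bound sites.

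Sprr1a, a main cross-bridging precursor of the squamous epithelia, was the most abundant Sprr gene in every group. The 4 Control WT rats had 881, 896, 1201 and 915 TPM, whereas the 3 UVB WT rats had 1659.5, 1281 and 2103 TPM. In P1.hMR rats it was 958, 1057, 1152, 1087 and 1064 TPM without UVB and 1911, 1724, 2229.6, 2632 and 2624 TPM with UVB. Every irradiated rat lay above every control rat of its genotype, and 1 Control WT rat, at 1201 TPM, came near the lowest UVB WT rat. The group means were 973 ± 153 (SD, n = 4) and 1681 ± 411 TPM (SD, n = 3) in WT rats and 1063 ± 69.9 (SD, n = 5) and 2224 ± 411 TPM (SD, n = 5) in P1.hMR rats. Sprr1a ranked 119th of the tested genes by its mean in Control WT rats and 27th in UVB P1.hMR rats.

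Sprr1b, a close relative of Sprr1a that is low in resting epithelium, was the Sprr gene with the steepest rise. In Control WT rats it was at 11.45, 12.87, 5.51 and 15.45 TPM, and in UVB WT rats at 134, 124 and 186 TPM. In Control P1.hMR rats it was at 7.96, 9.53, 9.19, 6.78 and 7.80 TPM, and in UVB P1.hMR rats at 108, 122, 177, 188 and 275 TPM. Mean levels were 11.3 ± 4.21 (SD, n = 4) and 148 ± 33.3 TPM (SD, n = 3) in WT rats and 8.25 ± 1.11 (SD, n = 5) and 174 ± 66.2 TPM (SD, n = 5) in P1.hMR rats. The gap between the groups was wide in both genotypes, since the lowest irradiated rat had 108 TPM and the highest control rat 15.45 TPM. Mean TPM after UVB was 13.1 times that of controls in WT rats and 21.1 times in P1.hMR rats. By mean level it moved from rank 7721 to rank 940 of the tested genes in WT rats and from 8711 to 795 in P1.hMR rats. The table lists Sprr1a and Sprr1b as separate genes with their own Entrez identifiers, 499660 and 685912, and Sprr1b without a biotype. RefSeq also gives the name Sprr1b as an older synonym of Sprr1a, and reads that fit both genes could have been divided between them.

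Sprr3, the Sprr protein of internal and mucosal stratified epithelia such as the oesophagus, was the second most abundant. It measured 126, 123, 175 and 173 TPM in Control WT rats and 406, 316 and 557 TPM in UVB WT rats. The Control P1.hMR rats had 146, 134, 187, 113 and 92.3 TPM and the UVB P1.hMR rats 523, 481, 596, 771 and 759.9 TPM. The groups with and without UVB did not overlap in either genotype. In WT rats the mean was 149 ± 28.7 TPM (SD, n = 4) without and 426 ± 122 TPM (SD, n = 3) with UVB, a ratio of 2.86. In P1.hMR rats it was 135 ± 35.9 TPM without and 626 ± 134 TPM with UVB (SD, n = 5 each), a ratio of 4.65.

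Sprr2d, of the Sprr2 group of inducible envelope precursors, was the lowest and the most variable of the 4 genes. Control WT rats had 6.33, 1.37, 1.67 and 0.96 TPM, and UVB WT rats had 4.74, 19.52 and 16.58 TPM. Control P1.hMR rats had 3.20, 1.48, 6.70, 1.59 and 10.05 TPM, and UVB P1.hMR rats had 6.29, 6.68, 9.39, 17.25 and 21.45 TPM. Here the groups overlapped in both genotypes, because 1 UVB WT rat at 4.74 TPM was below 1 Control WT rat and because 2 Control P1.hMR rats reached 6.70 and 10.05 TPM. Means were 2.58 ± 2.52 (SD, n = 4) and 13.6 ± 7.82 TPM (SD, n = 3) in WT rats and 4.60 ± 3.70 (SD, n = 5) and 12.2 ± 6.79 TPM (SD, n = 5) in P1.hMR rats. How the authors' quantification treated reads that Sprr2d may share with related Sprr2 genes is not given, so its level is uncertain.

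**Figure D1:**
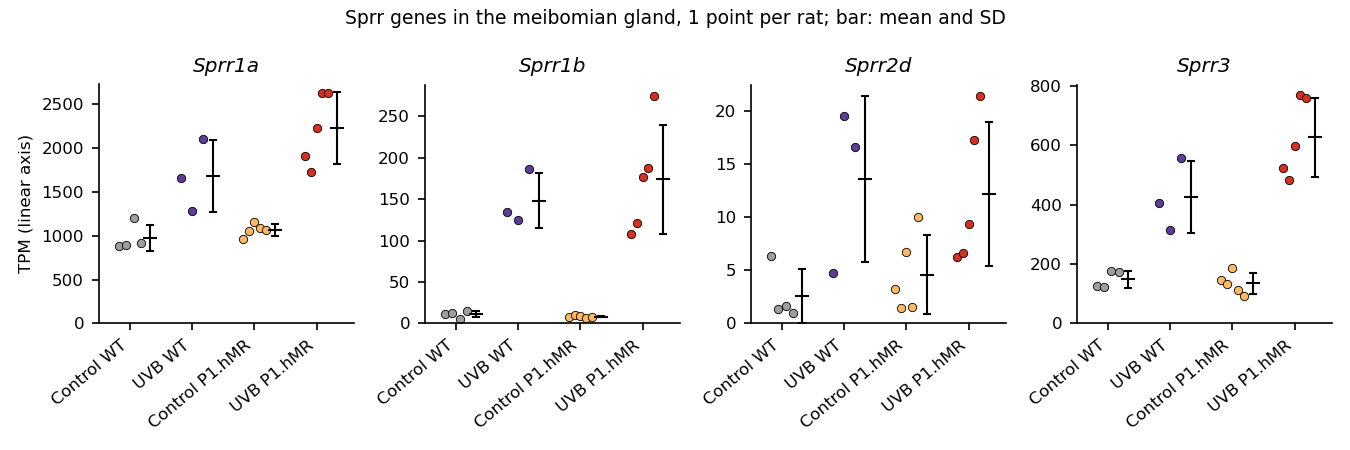
TPM of Sprr1a, Sprr1b, Sprr2d and Sprr3 on linear axes that start at 0, with 1 point per rat by group and the mean and SD of each group as a bar beside the points. Irradiated rats lie above the control rats of their genotype for Sprr1a, Sprr1b and Sprr3, while the points of Sprr2d overlap between 4.74 and 10.05 TPM.

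The effect of UVB was tested in each genotype with limma on log2(TPM + 1). On this scale the change of a low gene such as Sprr2d is understated. A gene was called a DEG (differentially expressed gene) at a Benjamini-Hochberg adjusted p under 0.05 over all genes tested if its log2 fold change was also 0.5 or more in size. In WT rats all 4 Sprr genes were upregulated DEGs, where 3.92% of all tested genes were upregulated DEGs. Sprr1b had a log2 fold change of 3.66 (SE 0.30, adjusted p = 3.72e-06, limma), which only 1 of the tested genes exceeded. Sprr3 had 1.49 (SE 0.23, adjusted p = 0.000561, limma) and Sprr1a 0.77 (SE 0.16, adjusted p = 0.00398, limma). The estimate for Sprr2d was 2.05 with the widest error (SE 0.60, adjusted p = 0.0230, limma).

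In P1.hMR rats the same 4 genes were upregulated DEGs, beside 5.05% of all tested genes. Sprr1b, with a log2 fold change of 4.17 (SE 0.25, adjusted p = 3.77e-08, limma), had the largest rise of all tested genes in these rats. Sprr3 followed with 2.22 (SE 0.19, adjusted p = 1.08e-06, limma), the 20th largest rise, and Sprr1a with 1.05 (SE 0.14, adjusted p = 2.71e-05, limma). For Sprr2d the value was 1.34 (SE 0.50, adjusted p = 0.0413, limma). Of all tested genes, 2.98% were upregulated DEGs in both genotypes. Complete separation of irradiated from control rats, seen for 3 of the 4 Sprr genes, occurred with higher values after UVB in 14% of all tested genes in WT and in 13.2% in P1.hMR rats. The call of Sprr2d rested on few rats. In WT rats it was lost when Control WT rat 2, 3 or 4 or UVB WT rat 2 or 3 was left out, with log2 fold changes down to 1.70 and adjusted p up to 0.101 (limma). In P1.hMR rats it was lost without Control P1.hMR rat 1, 2 or 4 or UVB P1.hMR rat 3, 4 or 5, with values down to 1.11 and adjusted p up to 0.107 (limma), and also when no filter on low values was set (adjusted p = 0.0603, limma). The calls of Sprr1a, Sprr1b and Sprr3 held with each rat left out in turn.

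Single genes were also compared with two-sided exact permutation tests on the same scale. In WT rats, where 4 against 3 rats allow no p below 0.0571, Sprr1a, Sprr1b and Sprr3 each reached this smallest p and Sprr2d gave an exact p = 0.114. In P1.hMR rats the same 3 genes reached the smallest possible exact p of 0.00794, and Sprr2d gave an exact p = 0.0714. When UVB labels were permuted within each genotype, over 8820 arrangements, Sprr1a, Sprr1b and Sprr3 had the smallest exact p that this test can give, 0.000227, and Sprr2d had an exact p = 0.00454.

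Genotype alone made no Sprr gene a DEG. Without UVB, limma called 0 of the 4 genes between P1.hMR and WT rats, beside 0.00763% of all tested genes, and 0 had an unadjusted p under 0.05, where 4.03% of all tested genes did. The estimates were 0.14 for Sprr1a (95% interval -0.17 to 0.44), -0.34 for Sprr1b (-0.90 to 0.21), 0.61 for Sprr2d (-0.50 to 1.72) and -0.17 for Sprr3 (-0.60 to 0.27).

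Among irradiated rats, 0 of the 4 genes were called between P1.hMR and WT by limma, in a comparison that called 0.0229% of all tested genes, NR3C2 among them. At an unadjusted p under 0.05, 2 of the 4 were higher in P1.hMR rats, against 3.34% of all tested genes. Sprr3 was higher by 0.57 on the log2 scale (95% interval 0.09 to 1.04, adjusted p = 0.395, limma) and Sprr1a by 0.41 (0.08 to 0.74, adjusted p = 0.379, limma). The ratios of mean TPM were 1.47 and 1.32. Yet 1 UVB WT rat, at 557 TPM of Sprr3 and 2103 TPM of Sprr1a, lay above 2 of the 5 UVB P1.hMR rats for both genes. Two-sided exact permutation tests gave p = 0.107 for Sprr3 and p = 0.143 for Sprr1a, with a smallest possible p of 0.0357. Sprr1b differed by 0.17 (95% interval -0.43 to 0.77) and Sprr2d by -0.10 (-1.31 to 1.11).

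The interaction term asked whether UVB raised a gene by a different amount in P1.hMR rats. For Sprr3 the UVB response was larger in P1.hMR rats by 0.73 on the log2 scale (95% interval 0.09 to 1.38), with an unadjusted limma p of 0.0284 and an adjusted p of 0.711 over all genes. It was larger by 0.28 for Sprr1a (-0.17 to 0.73) and by 0.51 for Sprr1b (-0.31 to 1.33), and for Sprr2d the term was -0.71 (-2.35 to 0.94). Limma called 0 of the 4 genes, and 1 had an unadjusted p under 0.05, beside 6.92% of all tested genes. No Sprr gene thus passed the threshold for a response that differed between the genotypes.

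**Figure D2:**
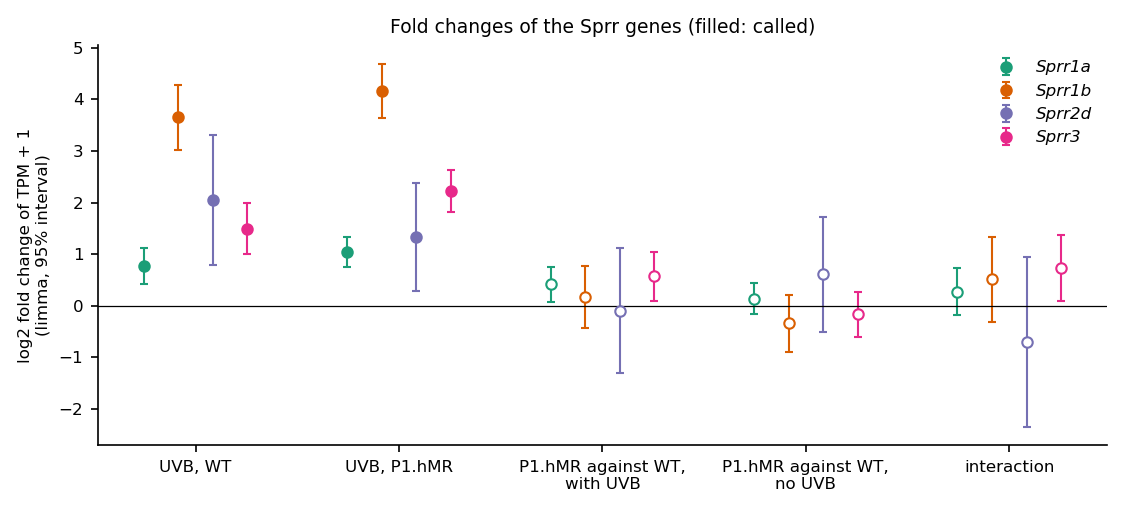
Log2 fold changes of TPM + 1 with 95% intervals from limma for the 4 Sprr genes in the 5 comparisons, where filled points are DEGs and open points are not. All 8 UVB estimates are filled and above 0, from 0.77 for Sprr1a in WT to 4.17 for Sprr1b in P1.hMR rats, and none of the genotype or interaction estimates is filled.

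The proportions within the family differed after UVB as well as its sum, which are given as a description without a test. Summed over the 4 genes, Sprr transcripts reached 1136 ± 169 TPM (SD, n = 4) in Control WT rats, and UVB WT rats had 2269 ± 564 TPM (SD, n = 3). The sum was 1211 ± 88.7 TPM in Control P1.hMR and 3037 ± 607 TPM in UVB P1.hMR rats (SD, n = 5 each). Sprr1a made up 85.6% ± 1.87 of this sum in Control WT and 74.1% ± 1.02 in UVB WT rats (SD, n = 4 and 3), and 87.9% ± 2.44 against 73.4% ± 1.40 in P1.hMR rats (SD, n = 5 each). Sprr3 went from 13.1% to 18.7% in WT and from 11.1% to 20.6% in P1.hMR rats, and Sprr1b from 1.04% to 6.58% and from 0.682% to 5.60%. The order Sprr1a, Sprr3, Sprr1b, Sprr2d held for the means of all 4 groups. Sprr1b and Sprr2d overlapped in both control groups and were apart in both UVB groups, where the lowest Sprr1b value was 108 TPM and the highest Sprr2d value 21.45 TPM.

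The 6 pairs of Sprr genes were compared by the log2 ratio of their TPM + 1 within a rat, with exact permutation of the UVB labels within each genotype and adjustment over the 6 pairs. Sprr1b rose more than Sprr1a by 3.00 on the log2 scale, averaged over genotypes, and more than Sprr3 by 2.06 (exact adjusted p = 0.000454 for each). It also rose more than Sprr2d by 2.22 (exact adjusted p = 0.00068). Sprr3 rose more than Sprr1a by 0.95 (exact adjusted p = 0.000454). The responses of Sprr1a and Sprr2d differed by -0.78 (exact adjusted p = 0.133) and those of Sprr2d and Sprr3 by -0.16 (exact adjusted p = 0.749), neither past the threshold. The order of the first 3 responses, Sprr1b above Sprr3 above Sprr1a, was seen in each genotype separately.

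Within the irradiated rats Sprr1a and Sprr3 varied together. Over the 8 UVB rats of both genotypes, log2(TPM + 1) of the 2 genes correlated at Pearson r = 0.991 and Spearman rho = 1 (two-sided exact permutation p = 4.96e-05, adjusted p = 0.000595 over 12 relations), and r was 0.977 without the 2 rats farthest from the median of Sprr1a. Over the 9 control rats the same pair had r = 0.22 and rho = 0.32 (exact permutation adjusted p = 0.746 and 0.492), and r was 0.07 without the 2 rats farthest from the median of Sprr1a. The log2 ratio of Sprr1a to Sprr3 had an SD of 0.063 and 0.055 in UVB WT and UVB P1.hMR rats, and of 0.21 and 0.375 in the control groups of these genotypes. Groups of 3 and 5 rats are too small for a correlation within each genotype, and the values of a rat share 1 library.

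Sprr1b followed Sprr1a less closely. Over the UVB rats their r was 0.77 and rho 0.74 (exact permutation adjusted p = 0.0706 and 0.138), and over the control rats r was -0.79 and rho -0.80 (exact permutation adjusted p = 0.0706 and 0.083). Without the 2 rats farthest from the median of Sprr1a, r was 0.88 and -0.73. Neither passed the adjustment, and the opposite signs were noticed only after the values were seen. In the Control WT group the rat with the highest Sprr1a, at 1201 TPM, had the lowest Sprr1b, at 5.51 TPM. Genotype was not held fixed here either. Control P1.hMR rats had a higher mean of Sprr1a than Control WT rats, 1063 against 973 TPM. Their mean of Sprr1b was lower, 8.25 against 11.3 TPM. Within the Control P1.hMR group the rat with the highest Sprr1a, at 1152 TPM, had 9.19 TPM of Sprr1b, above the mean of its group. The other 8 relations, each with Sprr2d or of Sprr1b with Sprr3, had adjusted p of 0.0945 or more for r (exact permutation).

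**Figure D3:**
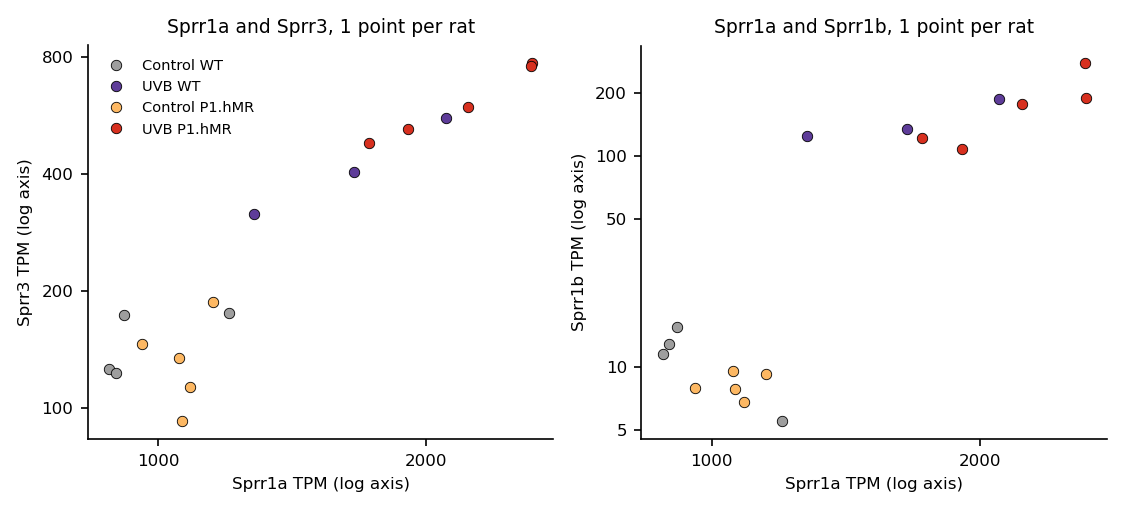
Sprr1a TPM against Sprr3 TPM (left) and against Sprr1b TPM (right) on log axes, with 1 point per rat coloured by group. The 8 irradiated rats fall on a narrow line for Sprr3 (Pearson r = 0.991) and scatter more for Sprr1b (r = 0.77), and the 9 control rats form a separate cloud in both panels.

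The nearest measured genes on both sides of the Sprr genes fell after UVB. In the reference annotation Sprr1b, Sprr3 and Sprr1a follow each other with no other protein-coding gene between them, and Sprr2d lies a few genes before them. Ivl, which codes for involucrin and is the next measured gene after Sprr1a, fell by 1.37 (SE 0.32, adjusted p = 0.00736, limma) in WT rats. In P1.hMR rats it fell by 1.25 (SE 0.27, adjusted p = 0.00161, limma). Prr9, the nearest measured gene before the Sprr2 genes, fell by 1.37 and 0.93 (adjusted p = 0.00779 and 0.0127, limma). Further out, Lce6a, a late envelope gene, fell by 0.86 and 1.26 (adjusted p = 0.00878 and 5.14e-05, limma), and S100a7a, an alarmin, rose by 1.03 and 1.72 (adjusted p = 0.00157 and 1.44e-06, limma). Of the 9 other genes tested in this window, which reached 10 protein-coding genes beyond the outermost reference Sprr genes, 1 rose and 4 fell in WT rats, while in P1.hMR rats 2 rose and 4 fell. The reference lists 10 protein-coding Sprr genes, of which 5 had a row in the table and the others were not analysed here. The fifth is listed as LOC108350059, named small proline-rich protein 2B in the table and Sprr2a2 in RefSeq, and it does not belong to the 4 genes because its symbol does not begin with Sprr. Its level ran from 0 to 40.72 TPM, with 1 UVB WT rat at 40.72 TPM and 3 of 5 Control P1.hMR rats listed at 0, and it was not a DEG after UVB in WT (log2 fold change 1.37, adjusted p = 0.336, limma) or in P1.hMR rats (1.26, adjusted p = 0.229, limma).

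**Figure D4:**
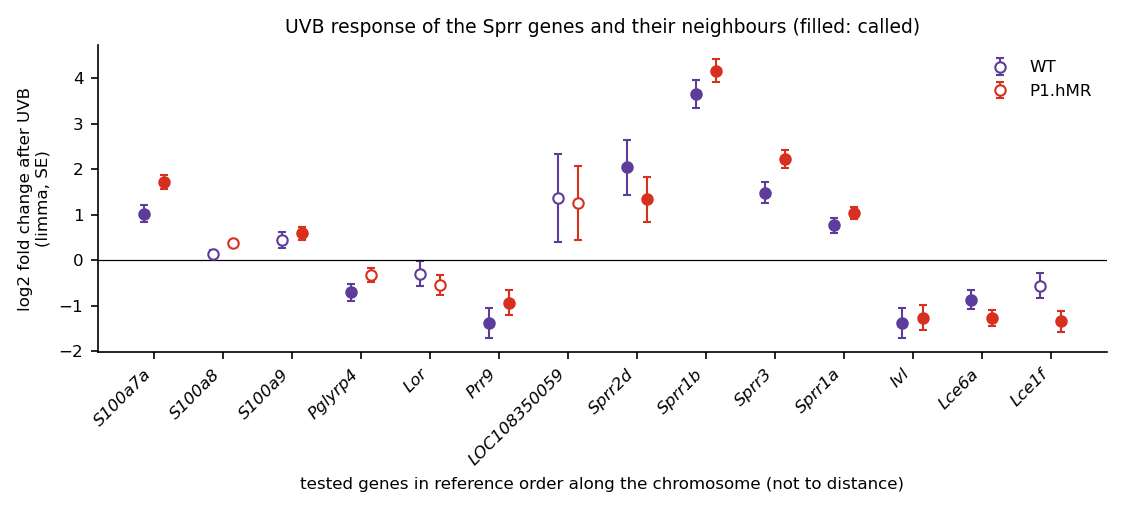
Log2 fold changes after UVB with SE from limma for the tested genes around the Sprr genes, in reference order along the chromosome and not to distance, in WT (purple) and P1.hMR rats (red), where filled points are DEGs. The 4 Sprr genes are positive and filled in both genotypes, with Sprr1b highest at 3.66 and 4.17, and Prr9, Ivl and Lce6a are negative and filled in both.

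Among the other precursors of the envelope, more genes fell than rose. Of the 14 tested genes of the precursor list, 1 rose and 7 fell in WT rats, and 1 rose and 7 fell in P1.hMR rats, with median log2 fold changes of -0.54 and -0.73 against 0.01 and -0.02 over all genes tested, of which 3.98% and 5.71% were downregulated DEGs. The list holds Ivl, Prr9 and Lce6a, which were described above. Cnfn, which codes for cornifelin, was the gene that rose, by 1.37 and 1.84 in the 2 genotypes (adjusted p = 0.000184 and 6.53e-07, limma). Lce1m, a late cornified envelope gene, fell by 1.80 and 2.29 (adjusted p = 0.0104 and 0.000196, limma), and Lce1l of the same family by 1.11 and 1.33 (adjusted p = 0.00216 and 3.42e-05, limma). Loricrin, listed as Lor and at 210 ± 23.8 TPM (SD, n = 4) in Control WT rats, had -0.29 and -0.54 (adjusted p = 0.469 and 0.0678, limma). Summed over the list, these precursors lay between 3443 and 3919 TPM in Control WT, 3144 and 4978 TPM in UVB WT, 3372 and 3908 TPM in Control P1.hMR and 3675 and 4480 TPM in UVB P1.hMR rats. The summed Sprr transcripts ran from 1025 to 1383 TPM, 1741 to 2862 TPM, 1115 to 1355 TPM and 2334 to 3681 TPM in the same groups, without overlap between irradiated and control rats, whereas the sums of the other precursors overlapped between groups.

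The enzymes and junction proteins that build the shell changed in part. Among 18 tested genes, 2 rose and 2 fell in WT, and 4 rose and 3 fell in P1.hMR rats, with medians of 0.01 and 0.08. Tgm3 and Tgm1, epidermal transglutaminases for which Sprr proteins are substrates, rose by 1.30 and 0.59 in WT (adjusted p = 0.000532 and 0.0165, limma) and, in the P1.hMR genotype, by 1.37 and 0.73 (adjusted p = 1.68e-05 and 0.00048, limma). Cst6, which codes for cystatin M/E, a protease inhibitor of the cornifying layers, fell by 1.29 and 1.53 (adjusted p = 0.000385 and 4.72e-06, limma). Tgm6 fell by 0.72 and 0.65 (adjusted p = 0.00116 and 0.000157, limma). Its level was low, with means of 2.215 TPM in Control WT and 0.97 TPM in UVB WT rats. In P1.hMR rats the means were 2.32 and 1.12 TPM.

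Of 37 tested regulators of keratinocyte differentiation, 2 rose and 2 fell in each genotype, with medians of -0.06 and -0.12. These shares lie near those of all tested genes given above. With 1 rat left out, the number of DEGs ran from 2 (without Control WT rat 4) to 4 in WT and from 2 (without Control P1.hMR rat 4) to 5 in P1.hMR rats. Fosl1, an AP-1 subunit, rose by 0.70 and 0.83 (adjusted p = 0.00484 and 0.000113, limma), from 4.16 ± 0.49 to 7.49 ± 1.87 TPM (SD, n = 4 and 3) in WT rats. Elf3, an ETS factor known to act on Sprr promoters, fell by 0.51 and 0.52 (adjusted p = 0.0103 and 0.0011, limma). Fos, Jun, Klf4 and Tp63 were not DEGs in either genotype, with log2 fold changes between -0.24 and 0.56.

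Several genes of the wounded epidermis rose in the same comparisons. Of 17 tested cytokines and growth factors, WT rats had 3 DEGs and P1.hMR rats 7, each of them higher (limma), with medians of 0.20 and 0.30. The number in WT rats was 5 when UVB WT rat 1 or 2 was left out, and whether the genotypes differ in these counts was not tested. Il36a and Il36g, epithelial cytokines of the interleukin-36 group, rose by 1.53 and 1.33 in WT (adjusted p = 0.00334 and 0.00378, limma) and, in the P1.hMR genotype, by 2.08 and 1.49 (adjusted p = 2.09e-05 and 0.000127, limma). Il36a rose from near 0, with means of 0.125 TPM in Control WT and 0.234 TPM in Control P1.hMR rats. Nrg1, a ligand of the ErbB receptors, rose by 0.73 and 0.87 (adjusted p = 0.0114 and 0.000394, limma). Of 12 tested stress genes, a list of alarmins, other stress genes and a keratin, WT rats had 5 DEGs and P1.hMR rats 6. Each of these DEGs was higher (limma), and the medians of the list were 0.31 and 0.48. Defb4, a beta-defensin, went from 70.9 ± 9.94 to 280 ± 58.2 TPM (SD, n = 4 and 3) in WT and from 55.9 ± 18.2 to 282 ± 35.0 TPM (SD, n = 5 each) in P1.hMR rats. Lcn2, the iron-scavenging lipocalin, rose by 3.54 and 2.65 (adjusted p = 0.00778 and 0.00691, limma), from a mean of 0.11 TPM in Control WT rats. It ran from 0.35 to 30.39 TPM in UVB P1.hMR rats and up to 2.80 TPM in Control P1.hMR rats, so these groups overlapped. Slpi, a protease inhibitor, and Serpinb2, a serpin of stressed keratinocytes, rose by 1.52 and 1.27 in WT and 1.39 and 1.63 in P1.hMR rats. The stress keratin Krt17, the only keratin of this list, was not a DEG, with -0.06 and 0.11.

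**Figure D5:**
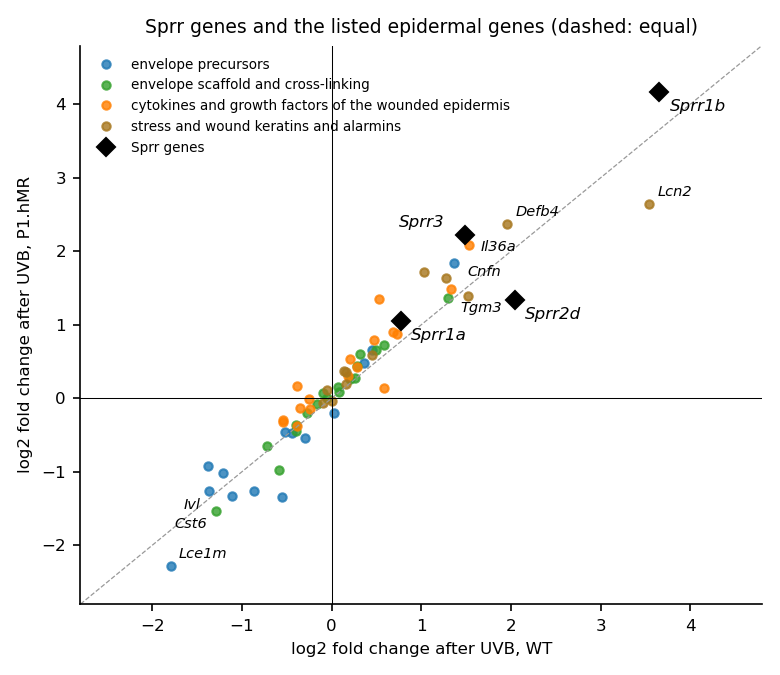
Log2 fold change after UVB in WT (horizontal) against P1.hMR rats (vertical) for the 4 Sprr genes (black diamonds) and the genes of 4 lists (coloured points), with a dashed line of equal change. Sprr1b is the point farthest from 0, at 3.66 and 4.17, and envelope precursors such as Lce1m, at -1.80 and -2.29, lie at the opposite end.

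Markers of other epithelia were read beside these changes. The 8 epidermis markers summed to 11118 to 13714 TPM in Control WT, 13568 to 15740 TPM in UVB WT, 11777 to 12740 TPM in Control P1.hMR and 12198 to 16425 TPM in UVB P1.hMR rats. Among them 1 was a DEG in WT and 2 in P1.hMR rats, all lower, with Krt77 at -4.01 and -3.25 (adjusted p = 8.03e-06 and 2.33e-06, limma), and Krt1, Krt5 and Krt10 were not DEGs. The number of epidermis DEGs in WT rats was 2 without Control WT rat 1 or 4 or Control P1.hMR rat 1 or 4, and 3 without UVB WT rat 2. Krt14, a keratin of the basal layer, had 0.48 and 0.50 (adjusted p = 0.0175 and 0.00204, limma) and missed the fold change threshold in both. The 4 conjunctiva markers summed to 3973 to 5391 TPM in Control WT and 4891 to 6373 TPM in UVB WT rats, and to 4447 to 5254 TPM and 5080 to 6931 TPM in P1.hMR rats. Krt4 and Krt13 were not DEGs, and Krt7 fell by 0.57 and 0.65 (adjusted p = 0.0426 and 0.00386, limma). Its call in WT rats was weak, since no conjunctiva marker was called there in 8 of the 17 fits that each left out 1 rat, those without Control WT rat 2, 3 or 4, UVB WT rat 1 or 3 or Control P1.hMR rat 1, 3 or 5. Relative to the summed epidermis markers of the same rat, mean Sprr1b was 10.85 times as high after UVB in WT and 17.3 times in P1.hMR rats, Sprr3 2.385 and 3.88 times, Sprr1a 1.43 and 1.75 times and Sprr2d 4.23 and 2.13 times. Relative to the conjunctiva markers these ratios were 11.45 and 17.7, 2.52 and 3.93, 1.51 and 1.75, and 4.405 and 2.14. On both relative scales Sprr1a, Sprr1b and Sprr3 of irradiated rats stayed above all control rats of their genotype, and Sprr2d overlapped. The epidermis list includes keratins found in the gland itself, so the first scale does not stand for epidermal content alone.

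Among the remaining tissues, Krt12, a keratin of the corneal epithelium, rose by 0.99 and 1.72 (adjusted p = 0.0332 and 9.76e-05, limma) from a low level, 6.545 ± 4.08 TPM (SD, n = 4) in Control WT rats, while Aldh3a1 of the same list fell by 0.86 and 0.75. In WT rats 1 of these 2 calls was lost without Control WT rat 1, 2 or 4 or UVB WT rat 1 or 3. Of 13 hair keratins, of the shaft and of the inner root sheath, 9 fell in WT and 7 in P1.hMR rats (limma), with medians of -1.04 and -0.71. These counts depended on single rats. In WT rats they were 3 without Control WT rat 3, 2 without UVB WT rat 1, 1 without UVB WT rat 2 and 13 without UVB WT rat 3, and in P1.hMR rats 4 without UVB P1.hMR rat 5 and 11 without Control P1.hMR rat 3. Their summed level was 1100 to 1458 TPM in Control WT and 416 to 1149 TPM in UVB WT rats, and 891 to 1802 TPM and 600 to 936 TPM in P1.hMR rats. Skeletal muscle markers had medians of -0.31 and -0.27, and 1 of 11 leukocyte markers rose in each genotype, Cpa3 of mast cells, by 0.77 and 1.37. In WT rats no leukocyte marker was called without UVB WT rat 3, and 2 were called without Control WT rat 1. Of 13 meibocyte markers, 2 rose and 1 fell in WT and 1 rose and 2 fell in P1.hMR rats, with Awat2, a wax synthase, at -0.65 and -0.52, and melanocyte markers, of which 3 of 4 fell in WT rats, had medians of -0.72 and -0.35. The meibocyte DEGs in WT rats numbered 1 without UVB WT rat 2 or 3. Summed meibocyte markers had medians of 49433 TPM in Control WT and 42423.5 TPM in UVB WT rats, with ranges of 45550 to 55249 and 42078 to 48658 TPM. In P1.hMR rats the medians were 48576 TPM without and 42773 TPM with UVB, with ranges of 44689 to 50442.5 and 39927 to 47590 TPM. The part of these tissues in the levels of the Sprr genes was not tested.

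The genes whose levels were most like those of each Sprr gene were found by Pearson correlation of log2(TPM + 1) over the 17 rats, among 9934 tested genes with a mean of at least 5 TPM. These correlations follow the UVB groups and are given without a test. Sprr1a was most like Gjb2, which codes for connexin 26, S100a6, Tmprss11b, Tax1bp3 and Tlcd3a, with r from 0.967 to 0.974. Sprr3 was most like Serpinb2, Npm1, Klk14, Tlcd3a and Klk13, with r from 0.972 to 0.979, and Klk13 and Klk14 are kallikrein proteases. Sprr1b was most like Prg4, Fscn1, Npm1, Tubb3 and Cpxm1, with r from 0.969 to 0.984. Sprr2d reached lower values, 0.837 to 0.850, with Nudt7, Aacs, Acat2, Atxn7l3 and Degs2.

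After the mean of each group was subtracted, so that only differences between rats of a group were left, the genes most like Sprr1a included Jup (r = 0.924), which codes for plakoglobin, Wfdc5 (0.904), Grhl3 (0.902), a factor of epidermal differentiation, and Tax1bp3 (0.898). Sprr3 was most like Dsp (r = 0.830), which codes for desmoplakin, Dsc3 (0.828), Tgm3 (0.823), Ankrd35 (0.822) and Slc35d2 (0.819). Sprr1b was most like Rwdd3 (r = 0.847), Ell2, Map3k9, Micall1 and Tk2, and Sprr2d like AABR07057423.1 (r = 0.820), Nat8l, Scnn1b, Cops7b and Defb3. By Spearman correlation, between 0 and 3 of each set of 5 genes were again among the first 5. The choice of these genes was thus sensitive to the measure, and for Sprr1b over all 17 rats 0 of the 5 were shared.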

How the data were processed

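The MG of 17 female rats was sequenced, and the labels place each rat in 1 of 4 groups. Per the study's methods, STAR 2.5.3 was run by the authors against the rn7 genome after a FastQC check, and RSEM 1.2.28 gave the abundance of each gene. The submitters' processing notes also name Trimmomatic, DRAGEN and Picard, with no role given. The deposited values are TPM per gene and rat, with 2 decimals and a decimal comma. How RSEM shared reads between similar Sprr genes, and library strandedness, are not given in the sources used here.

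From these values, genes that reached 1 TPM in 3 or more rats were analysed as log2(TPM + 1) in R 4.3.3 with limma 3.58.1 (a mean for each group, variance trend, two-sided), in place of the count-based test of the study's methods, since the deposited values are no counts. P-values were adjusted by Benjamini-Hochberg over all 13105 genes in each of the 5 comparisons. Python 3.11.15 with numpy 2.4.6, pandas 2.3.3, scipy 1.17.1, matplotlib 3.10.9 and Biopython 1.88 was used for exact permutation tests, motif searches and figures. In a test on simulated data, genes drawn from all those tested were made to change by 1 on the log2 scale. The model found 91% of them in the WT comparison, 96% in the P1.hMR comparison of UVB and 88% in the interaction. These shares are not those of the Sprr genes, whose interaction SE ran from 0.21 for Sprr1a to 0.78 for Sprr2d. How often such a change would be found in them was not tested. Spread between rats is the only error measured.

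Members and gene lists were chosen with earlier results of these data known, and the motifs after the sequences were seen. Named genes were every Sprr row, up to 4 genes per list with the largest change among those called after UVB in both genotypes (otherwise in 1), defining markers, the 5 genes most like each Sprr gene, reference neighbours and the 2 receptor genes. Loricrin, Krt17, Fos, Jun, Klf4, Tp63, Krt1, Krt5, Krt10 and LOC108350059 were named outside this rule after their values were seen, and 2 genes within it are not reported here. Alternatives were a pseudocount of 0.1, no filter, a mean of at least 5 TPM, 2 scalings, fits of only the 2 groups compared, no variance trend, a replicate block, other fold change thresholds and each rat left out. The log2 ratio of mean TPM was added after the values were seen.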

Additional observations from a re-analysis of the deposited data

Results flagged for a closer look

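In the groups of 4 or 5 rats, the levels of the 4 Sprr genes and their sum were checked with Dixon's ratio for a rat far from the others. Of the 15 sets of values, each a gene or the sum in a group, 2 held one, where chance gives about 1 in 20 per set. The sets share rats and the sum is mostly Sprr1a, so they are not independent. Control WT rat 3 stood above the other Control WT rats for Sprr1a, at 1201.3 TPM, and was also the lowest of its group for Sprr1b, at 5.51 TPM. Without it the log2 fold change of Sprr1b after UVB in WT rats was 3.38, against 3.66 with it. Control WT rat 1 stood above its group for Sprr2d, at 6.33 TPM, and its LOC108350059 level, 7.11 TPM, was likewise the highest of its group. The part of any technical difference in these values was not tested.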

How the results depend on the processing

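The 4 Sprr genes remained higher after UVB in both genotypes under each alternative run. Sprr1b and Sprr3 kept their calls under all of them, and Sprr1a under all but a fold change threshold of 1 on the log2 scale, which its value of 0.77 in WT rats misses. Sprr2d after UVB in P1.hMR rats lost its call without the filter on low values (log2 fold change 1.34, adjusted p = 0.0603, limma). Leaving out each rat moved the log2 fold changes after UVB in WT from 0.59 to 0.95 for Sprr1a, 3.38 to 3.82 for Sprr1b, 1.70 to 2.62 for Sprr2d and 1.28 to 1.69 for Sprr3, and in P1.hMR rats from 0.98 to 1.13, 3.98 to 4.32, 1.11 to 1.65 and 2.10 to 2.35. The number of Sprr genes called then ran from 3 to 4 in each genotype, the gene lost being Sprr2d. Between irradiated P1.hMR and WT rats the difference then ran from -0.0143 to 0.35 for Sprr1b and from -0.67 to 0.24 for Sprr2d, and thus changed sign without UVB P1.hMR rat 5 for Sprr1b and without UVB WT rat 2 or 3 or UVB P1.hMR rat 1 or 2 for Sprr2d. For Sprr3 it ran from 0.37 (without UVB WT rat 2) to 0.78 (without UVB WT rat 3), and for Sprr1a from 0.23 to 0.59 without the same rats. The interaction of Sprr3 ran from 0.54 to 0.95 and stayed above an adjusted p of 0.292. The difference of response between Sprr2d and Sprr3 reversed to 0.19 with a pseudocount of 0.1 and to 0.24 without a pseudocount, and ran from -0.43 to 0.12 with rats left out. It passed no threshold in any setting.

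Counts over all genes moved more. After UVB in WT rats, 1036 genes were called, 690 with a mean of at least 5 TPM, 2820 without a fold change threshold and 219 with that threshold raised to 1. In P1.hMR rats these counts were 1410, 882, 5123 and 300. Between irradiated genotypes 3 genes were called, NR3C2 among them. The count was 1 with a pseudocount of 0.1, 1 with only the 2 groups in the fit, 1 with the replicate block and 0 with a mean of at least 5 TPM. With rats left out it ran from 1 to 51, the latter without UVB WT rat 3. Between control genotypes 1 gene was called, the transgene's NR3C2, and 1 to 6 with rats left out. With a mean of at least 5 TPM it was 0, as NR3C2 did not pass this filter. For the interaction 0 genes were called, and 0 to 8 with rats left out. The cause of the other changes in these counts was not tested.

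The labels do not say whether the replicate numbers mark shared litters or days. Same-numbered rats had correlations of their deviations from the group means between -0.19 and 0.24, not all above 0.1. Such correlations cannot decide whether these rats shared a litter or a day. With the replicate block the log2 fold changes after UVB were 0.80, 3.72, 2.01 and 1.52 in WT rats and 1.05, 4.17, 1.34 and 2.22 in P1.hMR rats for Sprr1a, Sprr1b, Sprr2d and Sprr3, the calls of these genes were the same as without it, and 1019 and 1400 of all genes were called.

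TPM keeps no depth, so the lowest values, those of Sprr2d, could not be weighed by read number.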
